A study of Rattus norvegicus with 6 samples.

Results

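The canonical Wnt core examined here is a set of 10 genes taken by symbol: the co-receptors Lrp5 and Lrp6, the destruction complex genes Apc, Axin1, Axin2 and Gsk3b, the β-catenin gene Ctnnb1, and the TCF/LEF transcription factor genes Tcf7l1, Tcf7l2 and Lef1. Of the 22574 gene symbols in the count table, 9 are members, and all 9 had enough counts to be tested. Axin1 was not analysed here. The cells were RASMCs, primary smooth muscle cells from the aortas of young male Sprague-Dawley rats. In 3 libraries they had received H3CIT (citrullinated histone H3, 0.03 μM) and dsDNA (300 ng/ml), which are components of extracellular traps, and in 3 control libraries they had received BSA. For in vitro experiments in general, the study's reporting summary says that cells of the same rat were spread over separate wells as replicates. The sources used here do not say how many rats these libraries came from. If the general statement holds for them, the p-values measure the spread between wells and library preparations, not between animals. How long the cells of these libraries were exposed is not given in the sources used here.

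In canonical Wnt signaling, a Wnt protein binds a Frizzled receptor together with LRP5 or LRP6. Without that signal, a complex built on AXIN and APC holds β-catenin for phosphorylation by GSK3B and casein kinase 1, and the ubiquitin ligase subunit β-TrCP marks it for degradation. With the signal, β-catenin escapes, enters the nucleus and joins TCF/LEF factors on target genes, among them Axin2, which feeds back on the pathway. β-catenin has another role at the cell membrane, where it links cadherins to α-catenin. In arterial smooth muscle the pathway is known for its part in proliferation and in the remodeling of injured vessels.

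Ctnnb1 and Apc were higher in H3CIT+dsDNA cells, by 2.63-fold and 3.05-fold, and Lrp6 was 1.93-fold lower (each n = 3 libraries per group). These 3 members passed the test, and the other 6 did not. Of the classical β-catenin target genes, 0 of 23 tested were called by edgeR, where 2.20% of all genes tested were, and 4 had an unadjusted p under 0.05, as did 13.9% of all genes tested. The question behind the comparison was how components of extracellular traps alter gene expression in neighboring smooth muscle cells.

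Total counts lay between 17573905 and 18742395 per library. Levels are CPM, counts scaled to a common library size with TMM, and SE stands for standard error. The summed marker levels below are the exception, scaled by total counts alone without TMM. CPM is not divided by transcript length, so levels are compared between libraries and not between genes. Genes were compared with the quasi-likelihood test of edgeR, two-sided, and called at a Benjamini-Hochberg adjusted p under 0.05. Of 12591 genes tested, 277 were called, 2.20% in either direction, 1.94% higher and 0.262% lower in H3CIT+dsDNA cells. Of the 9 members, 3 were called, 2 of them higher and 1 lower, and all 3 changed by more than 1.5-fold, which 1.25% of all genes did with a call. In CPM the libraries of both groups did not overlap in 19.1% of all genes tested and in 5 of the 9 members, Ctnnb1, Apc, Lrp5, Lrp6 and Tcf7l2.
The labelled cell type was checked on markers. All 10 smooth muscle markers were tested and 5 were called (Acta2, Tagln, Cnn1 and Smtn lower, Myocd higher). Their summed levels were 9468 to 10127 CPM in controls and 6886 to 7379 in H3CIT+dsDNA libraries. Most of the sum came from Acta2 and Tagln. Acta2 had 87659 to 98777 counts in controls and 52005 to 62392 in H3CIT+dsDNA libraries, and Tagln 47689 to 51704 and 35702 to 38008. The uncalled markers, Myh11, Des, Lmod1, Mylk and Cald1, had log2 fold changes between -0.06 and 0.16. Of 8 endothelial markers, 5 were tested and 0 called by edgeR, 0 also at an unadjusted p under 0.05. Their sums were 67.2 to 69.9 in controls and 62.9 to 67.8 in H3CIT+dsDNA libraries. Most of the sum came from Egfl7, with 973 to 1102 counts per library. Cdh5 had 73 to 105 counts and Tie1 38 to 61. The other listed genes had at most 18 in any library, among them Kdr with at most 1. Of 10 macrophage and leukocyte markers, 4 were tested and 0 called, 0 also at an unadjusted p under 0.05. Their sums were 73.0 to 75.7 in controls and 72.3 to 75.1 in H3CIT+dsDNA libraries. Most of the sum came from Cd14, with 921 to 994 counts per library, and Csf1r, with 296 to 374. Cd68 had 10 to 19 counts. The other listed genes had at most 35 in any library, among them Ptprc and Itgam with at most 1. The 6 fibroblast markers, of which 2 were tested and 0 called, summed to 2.56 to 4.88 in controls and 2.67 to 4.15 in H3CIT+dsDNA libraries, with Cd34 at 0 counts in all of them. The smooth muscle sum moved with the groups, and its part in the results below was not tested. In bulk RNA, fewer cells with a transcript and less of it per cell cannot be told apart.

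**Figure D1:**
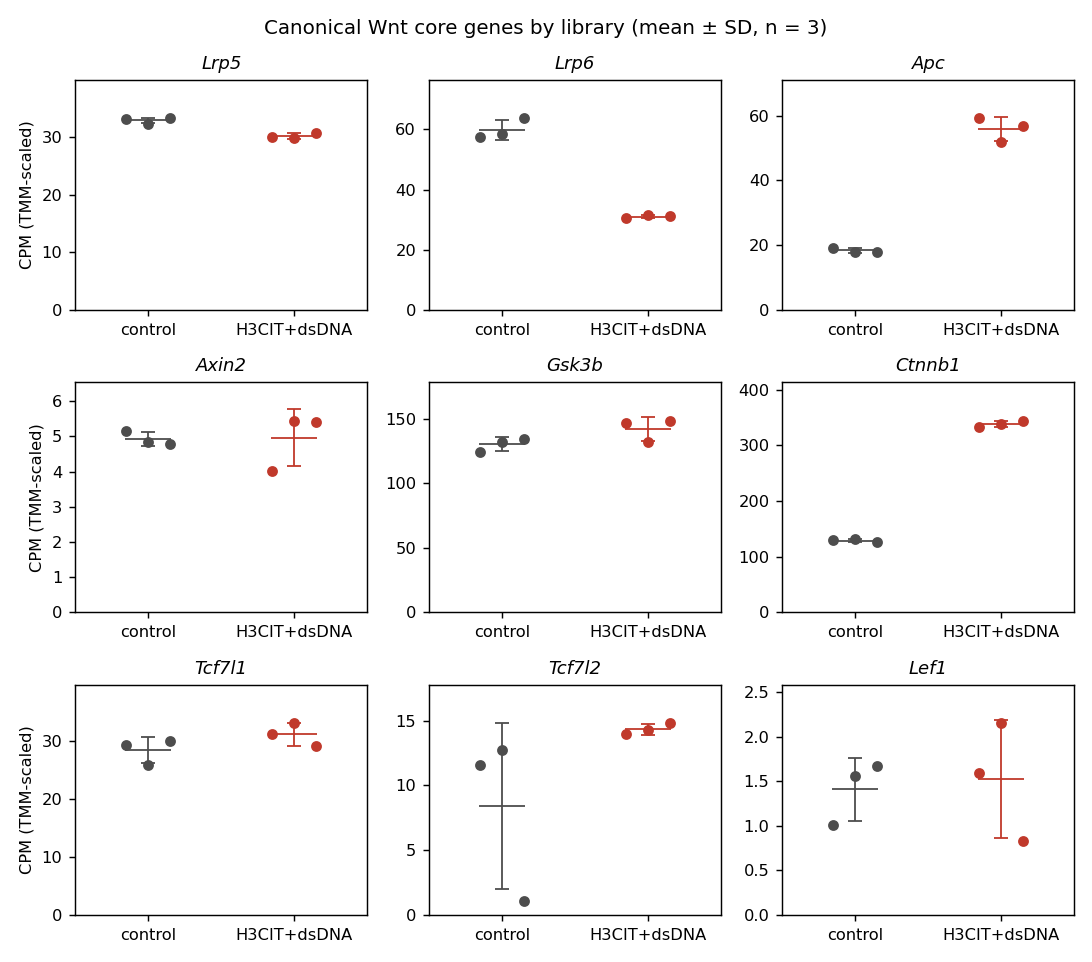
Level of each canonical Wnt core gene in TMM-scaled CPM (vertical axes, starting at 0) in the 3 control and 3 H3CIT+dsDNA libraries; points are libraries, the bar and whiskers are the mean ± SD (n = 3). Ctnnb1 and Apc lie well above their controls and Lrp6 well below, and 1 control library of Tcf7l2 stands at 1.08 CPM against 11.5 and 12.7 in the other controls.

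The first members in the pathway's order are the co-receptors. Lrp6 encodes a single-pass co-receptor that Wnt binding brings together with Frizzled and whose intracellular tail recruits AXIN. Lrp6 had 1026, 1084 and 1183 counts in control replicates 1 to 3 and 553, 554 and 565 in H3CIT+dsDNA replicates 1 to 3. Every H3CIT+dsDNA library was below every control, by far more than the spread within either group. The mean was 59.9 ± 3.37 CPM in controls and 31.0 ± 0.478 CPM after H3CIT+dsDNA (SD, n = 3 each), which gives a log2 fold change of -0.95 (SE 0.06, edgeR adjusted p = 1.17e-07). The 95% interval of the log2 fold change ran from -1.07 to -0.83. Of the 33 genes called lower, 16 had a larger decrease than Lrp6, which ranked 17 among them.
Lrp5 encodes the closely related co-receptor. Its counts were 590, 600 and 618 in controls and 543, 526 and 559 in H3CIT+dsDNA libraries, which did not overlap but lay close together. The means were 32.9 ± 0.502 CPM against 30.2 ± 0.520 CPM (SD, n = 3 each), which gives a log2 fold change of -0.12 (SE 0.06) that was not called (edgeR adjusted p = 0.359). The 95% interval of this log2 fold change, -0.25 to 0.00, does not reach the -0.95 of Lrp6.
The ratio of Lrp6 to Lrp5 counts within a library needs no scaling between libraries, although its size also depends on the lengths of both transcripts. It was 1.74, 1.81 and 1.91 in controls and 1.02, 1.05 and 1.01 in H3CIT+dsDNA libraries. The groups did not overlap, and the mean ratio was 1.77-fold higher in controls. This ratio, like the others given here, was chosen after the counts had been seen.

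The destruction complex is scaffolded by the next members. Apc encodes the large scaffold protein adenomatous polyposis coli, which binds β-catenin and AXIN and restrains β-catenin levels. Apc had 344, 333 and 332 counts in controls and 1074, 914 and 1029 in H3CIT+dsDNA libraries. The groups were far apart, with 914 counts in the lowest H3CIT+dsDNA library and 344 in the highest control. Apc rose, with means of 18.4 ± 0.784 CPM in controls and 55.9 ± 3.74 CPM after H3CIT+dsDNA (SD, n = 3 each), which gives a log2 fold change of 1.61 (SE 0.07, edgeR adjusted p = 3.62e-09). As a fold change this was 3.05 (95% interval 2.75 to 3.37). It was the largest change of the 9 members in the edgeR test, and it ranked 66 among the 244 genes called higher. The 3 control counts of Apc each lay within 2 counts of those of 1 other tested gene, Bok, which had 343, 335 and 332, and whether the deposited counts match the reads was not examined here. Apc2, its paralog, had between 34 and 47 counts in every library and was not called (log2 fold change 0.10, SE 0.22, edgeR adjusted p = 0.880).
Gsk3b encodes glycogen synthase kinase 3β, which phosphorylates β-catenin in the complex. Its counts were 2220, 2451 and 2498 in controls and 2662, 2323 and 2701 in H3CIT+dsDNA libraries. The groups overlapped, since H3CIT+dsDNA replicate 2 fell below control replicate 3 in CPM. The log2 fold change of 0.13 (SE 0.05) was not called (edgeR adjusted p = 0.276), with a 95% interval of 0.02 to 0.24. Gsk3a, the sister kinase, had a log2 fold change of -0.05 (SE 0.04, edgeR adjusted p = 0.658).
Axin2 encodes a scaffold of the same complex that is itself switched on by β-catenin and TCF, and its transcript is widely read as a gauge of pathway output. Axin2 had 92, 90 and 89 counts in controls and 73, 96 and 98 in H3CIT+dsDNA libraries. H3CIT+dsDNA replicate 1 was the lowest library and the other H3CIT+dsDNA libraries were the highest, so the groups overlapped. The means were 4.93 ± 0.194 CPM in controls and 4.96 ± 0.807 CPM after H3CIT+dsDNA (SD, n = 3 each). Axin2 thus had a log2 fold change of 0.01 (SE 0.16, edgeR adjusted p = 0.993). Its 95% interval allows a fold change between 0.787 and 1.28. How far Axin2 would change with Ctnnb1 RNA was not tested, and these libraries do not measure β-catenin protein. The spread among the 3 controls, a coefficient of variation of 3.93%, was smaller than the 10.5% that counting error alone gives at this depth, whereas that of the H3CIT+dsDNA libraries was 16.3%.

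Ctnnb1, which encodes β-catenin, had the smallest p-value of the members. Its counts were 2322, 2433 and 2333 in controls and 6040, 5973 and 6255 in H3CIT+dsDNA libraries. The groups did not overlap, and within each of them the libraries differed by a few percent, with coefficients of variation of 2.23% in controls and 1.69% after H3CIT+dsDNA, close to the 2.06% and 1.28% of counting error alone. Ctnnb1 rose, with means of 129 ± 2.88 CPM in controls and 339 ± 5.73 CPM after H3CIT+dsDNA (SD, n = 3 each). This gives a log2 fold change of 1.39 (SE 0.03, edgeR adjusted p = 4.86e-11), with a fold change of 2.63 (95% interval 2.49 to 2.77). By p-value Ctnnb1 ranked 5 among the 12591 genes tested, and by size of the rise it ranked 94 among the 244 genes called higher.
Against its partners in the adherens junction the rise was of the same order. The ratio of Ctnnb1 to Ctnna1 (α-catenin) counts was 0.208, 0.212 and 0.203 in controls and 0.544, 0.566 and 0.602 in H3CIT+dsDNA libraries, 2.75-fold higher on average. The ratio of Ctnnb1 to Jup (γ-catenin, the closest relative of β-catenin) was 0.572, 0.565 and 0.533 in controls and 1.52, 1.53 and 1.53 in H3CIT+dsDNA libraries, 2.74-fold higher on average. Ctnna1 and Jup were not called, with log2 fold changes of -0.07 (edgeR adjusted p = 0.420) and -0.06 (edgeR adjusted p = 0.441). The ratio of Apc to Ctnnb1 counts, 0.148, 0.137 and 0.142 in controls and 0.178, 0.153 and 0.165 in H3CIT+dsDNA libraries, was 1.16-fold higher on average in H3CIT+dsDNA cells, without overlap.

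Among the transcription factors, no member was called. Tcf7l1, which encodes a TCF factor that mostly represses its targets, had 524, 481 and 556 counts in controls and 567, 583 and 528 in H3CIT+dsDNA libraries. The groups overlapped, and the log2 fold change of 0.13 (SE 0.07, edgeR adjusted p = 0.470) has a 95% interval from 0.980-fold to 1.23-fold.
Tcf7l2 encodes the TCF factor that is best known from intestine and pancreatic islets. Its counts were 253, 251 and 269 in H3CIT+dsDNA libraries and 206, 236 and 20 in controls. The H3CIT+dsDNA libraries lay close together, while control replicate 3 stood far below every other library. Counting error allows 12.2 to 30.9 counts around a count of 20 (95% exact Poisson interval), so it does not reach the 206 of the next control. The means were 8.45 ± 6.41 CPM in controls and 14.3 ± 0.440 CPM after H3CIT+dsDNA (SD, n = 3 each), with a log2 fold change of 0.77 (SE 0.45, edgeR adjusted p = 0.491). Without control replicate 3 the log2 fold change was 0.24 (SE 0.10, edgeR adjusted p = 0.251), and Tcf7l2 was called neither with nor without that library.
Lef1, the factor named for its role in lymphoid cells, had few counts. It had 18, 29 and 31 counts in controls and 29, 38 and 15 in H3CIT+dsDNA libraries, which overlapped. The log2 fold change of 0.11 (SE 0.35, edgeR adjusted p = 0.930) has a 95% interval from 0.640-fold to 1.81-fold. A change within those bounds is compatible with these counts, and the interval is not a limit of detection. Tcf7, the remaining gene of this family and not a member, had 136 to 143 counts in controls and 108 to 147 in H3CIT+dsDNA libraries and was not called (log2 fold change -0.08, SE 0.14, edgeR adjusted p = 0.842).

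**Figure D2:**
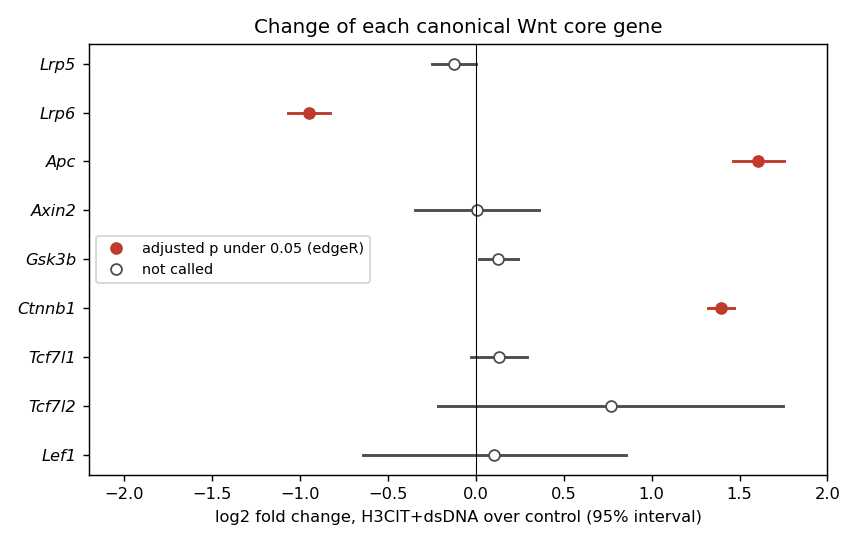
Log2 fold change of each member, H3CIT+dsDNA over control (horizontal axis), with its 95% interval from edgeR's quasi-likelihood fit over 3 libraries per group; filled red points are members called at an adjusted p under 0.05. The intervals of Ctnnb1, Apc and Lrp6 lie far from 0, those of Axin2, Tcf7l1, Tcf7l2 and Lef1 span it, and those of Gsk3b and Lrp5 end next to it.

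Windows around the annotated start of the feedback gene Axin2, which held a TCF/LEF match, and of Apc, the member with the largest rise, are shown. RefSeq windows from 250 bases before to 50 after the annotated start, in the later rat assembly GRCr8, were found for 7 of the 9 members, all but Lrp5 and Lrp6. They were searched on both strands for the TCF/LEF core CTTTGAT, the STAT motif TTCNNNGAA and the interferon-stimulated response element, motifs chosen after the counts had been seen. A TCF/LEF match was present in 3.63% of the 33469 windows of this length, a STAT match in 8.87% and an interferon-response match in 3.92%. Among the 7 members, the Axin2 window held 1 TCF/LEF match, 132 bases before the annotated start and given in capitals, and no other match to the 3 motifs was found.
Axin2, GRCr8 chr10:94398535-94398834, plus strand: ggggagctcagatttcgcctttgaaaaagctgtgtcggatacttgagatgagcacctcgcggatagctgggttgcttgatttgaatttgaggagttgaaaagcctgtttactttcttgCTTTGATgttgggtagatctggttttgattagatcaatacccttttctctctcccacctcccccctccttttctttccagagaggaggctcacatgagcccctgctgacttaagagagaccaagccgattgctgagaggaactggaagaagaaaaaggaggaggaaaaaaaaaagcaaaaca
Apc, GRCr8 chr18:26138132-26138431, plus strand: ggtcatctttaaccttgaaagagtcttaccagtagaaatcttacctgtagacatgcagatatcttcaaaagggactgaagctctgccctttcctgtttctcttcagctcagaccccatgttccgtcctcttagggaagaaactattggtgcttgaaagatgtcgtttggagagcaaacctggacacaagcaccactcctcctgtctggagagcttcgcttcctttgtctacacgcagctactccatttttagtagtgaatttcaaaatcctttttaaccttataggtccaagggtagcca
The 7 windows differ in base composition, with 7 CpG dinucleotides in Ctnnb1, 4 in Apc, 5 in Axin2, 7 in Gsk3b, 37 in Tcf7l1, 36 in Tcf7l2 and 23 in Lef1. The start they are built on coincides with the outermost start of the RefSeq gene for Apc and Tcf7l2, but lies 172 bases inside the gene for Lef1, 591 for Tcf7l1, 1416 for Gsk3b, 5406 for Axin2 and 16561 for Ctnnb1. The windows of Axin2 and Ctnnb1 are therefore not the regions before the outermost start. The TCF/LEF match of Axin2 lies inside the annotated gene, and the Ctnnb1 window is not shown. Where transcription starts in these cells was not measured, and the absence of a match says only that these letters are not in the window.

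Around the core, 149 further symbols of the pathway were listed by role, 148 of them were in the count table (Tnks2 was not analysed here) and 103 had enough counts to be tested. Of the 103, edgeR called 3, all higher, against 2.20% of all genes. The median log2 fold change of the 103 genes was 0.01 and the median size of the change 0.06, beside 0.00 and 0.08 over all 12591 genes. For 90 of the 103 genes the whole 95% interval lay within a 1.5-fold change in either direction. The 45 untested genes had at most 17 counts in any library (Sfrp2), and 16 of them had 0 counts in all 6. A count of 0 allows up to 3 counts, or 0.162 to 0.170 CPM, in a library, which covers counting error only. In the groups with 0 called genes below, edgeR gave an unadjusted p under 0.05, which 13.9% of all genes tested had, to 0 ligand genes, 0 Frizzled and alternative receptor genes, 1 R-spondin gene (Rnf43), 0 inhibitor genes, 4 target genes (Rnf43, Wisp1, Fosl1 and Vegfa) and 1 junction gene (Afdn), and DESeq2 and limma-voom called 0 genes of these groups.
Of the gene group for ligands and their secretion, 6 of 21 were tested and 0 were called. Wnt2, Wnt3a, Wnt8a, Wnt9b and Wnt16 had 0 counts in every library. Wls, the cargo receptor that carries Wnt proteins to the cell surface, had a log2 fold change of 0.05 (SE 0.03, edgeR adjusted p = 0.566), and Porcn, the enzyme that attaches their lipid, one of 0.07 (SE 0.08, adjusted p = 0.753).
Of 17 Frizzled and alternative receptors, 14 were tested and 0 were called. Fzd2, a Frizzled receptor, was at a log2 fold change of -0.08 (SE 0.04, edgeR adjusted p = 0.433), and Ptk7, a catalytically inactive receptor kinase of planar polarity signaling, at -0.04 (SE 0.04, adjusted p = 0.651). No Frizzled gene tested was called beside the co-receptor Lrp6.
The R-spondin group, which sets how long Frizzled and LRP6 stay on the membrane, had 5 of 9 genes tested and 0 called. Lgr4 and Lgr6, receptors for R-spondins, had log2 fold changes of 0.05 (edgeR adjusted p = 0.851) and 0.05 (adjusted p = 0.750). Rnf43, named after its values were seen, encodes a ligase that removes Frizzled from the membrane and had 15, 23 and 20 counts in controls and 8, 10 and 9 in H3CIT+dsDNA libraries, without overlap. Its log2 fold change of -1.06 (SE 0.33) was not called (edgeR adjusted p = 0.145).
Of 17 secreted and membrane inhibitors, 4 were tested and 0 called. Dkk1, Dkk2, Sfrp1, Sost and Sostdc1 had 0 counts in every library. Kremen1, a receptor for Dickkopf proteins, had a log2 fold change of 0.00 (SE 0.08, edgeR adjusted p = 0.995), and Dkk3, a divergent Dickkopf protein, one of 0.00 (SE 0.25, adjusted p = 0.999).

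In the cytoplasm, 22 of 25 genes were tested. Of these, 6 had an unadjusted edgeR p under 0.05, as did 13.9% of all genes tested, and 1 was called. That gene was Btrc, which encodes β-TrCP1, the subunit that recognizes phosphorylated β-catenin and presents it for ubiquitination. Btrc had 565, 557 and 587 counts in controls and 1027, 1000 and 995 in H3CIT+dsDNA libraries. The groups did not overlap and each was tight. Btrc rose with a log2 fold change of 0.85 (SE 0.05, edgeR adjusted p = 1.57e-07), a fold change of 1.80. Fbxw11, which encodes the paralog β-TrCP2, had a log2 fold change of 0.04 (SE 0.05, edgeR adjusted p = 0.757). The ratio of Btrc to Fbxw11 counts was 0.304, 0.314 and 0.314 in controls and 0.532, 0.575 and 0.528 in H3CIT+dsDNA libraries. Ppp2r1a, the scaffold subunit of protein phosphatase 2A, and Csnk1d, a casein kinase 1, had log2 fold changes of -0.06 (edgeR adjusted p = 0.409) and 0.02 (adjusted p = 0.788).
In the nucleus, all 21 genes were tested, and 5 had an unadjusted edgeR p under 0.05. Their median log2 fold change was 0.09, with 17 values above 0 and 4 below, where 6225 of all 12591 genes were above 0. Libraries of both groups did not overlap for 8 of the 21, against 19.1% of all genes tested. Of the 21, 2 were called, both higher. These were Bcl9 and Bcl9l, paralogs that bind β-catenin directly and tie it to Pygopus proteins. Bcl9 had 725, 771 and 771 counts in controls and 868, 989 and 857 in H3CIT+dsDNA libraries, and rose with a log2 fold change of 0.29 (SE 0.07, edgeR adjusted p = 0.0408). Bcl9l had 3811, 3456 and 3336 counts in controls and 4096, 4213 and 4307 in H3CIT+dsDNA libraries, and rose by 0.28 (SE 0.06, edgeR adjusted p = 0.0181). The groups did not overlap for either gene, but both calls were lost with the replicate block, with adjusted p = 0.0603 for Bcl9 and 0.0507 for Bcl9l from edgeR. The Bcl9 call was also lost with upper-quartile scaling (edgeR adjusted p = 0.0657) and with limma-voom (adjusted p = 0.0520). With 1 library left out, the Bcl9 call remained only without H3CIT+dsDNA replicate 3 (edgeR adjusted p = 0.0462) and was otherwise lost, with an adjusted p of 0.0555 to 0.156, and the Bcl9l call remained only without control replicate 1 or control replicate 3 and was otherwise lost, with an adjusted p of 0.0575 to 0.109. Aes, which encodes a short Groucho-family corepressor, and Ctbp1, a C-terminal binding corepressor, had log2 fold changes of 0.01 (edgeR adjusted p = 0.929) and -0.08 (adjusted p = 0.383).

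**Figure D3:**
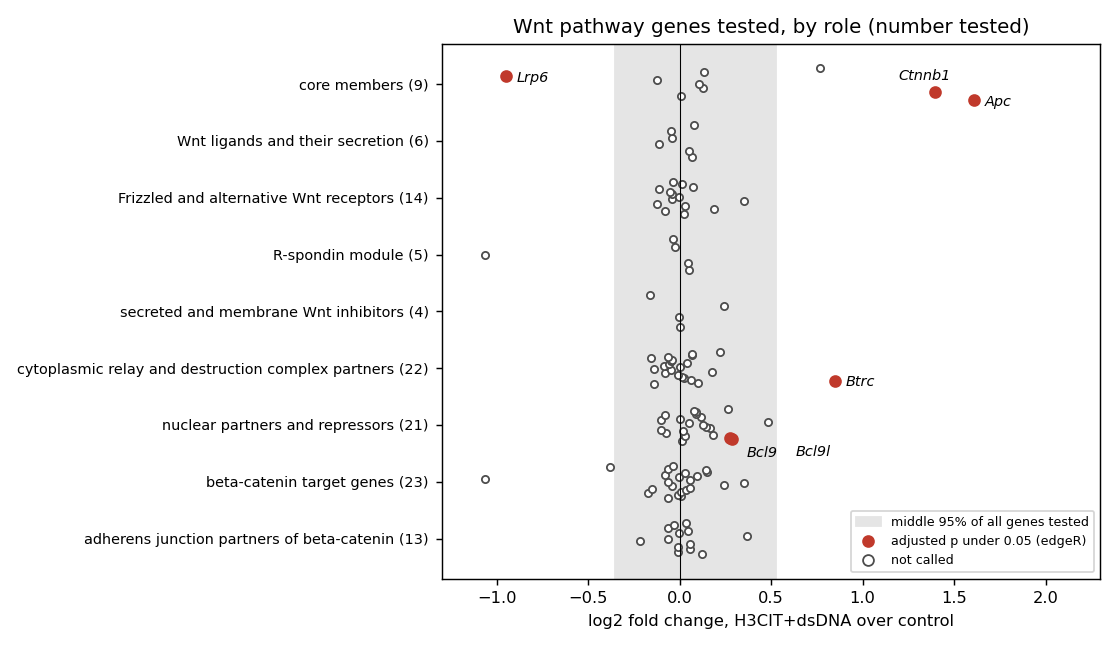
Log2 fold change (horizontal axis) of every tested gene of the pathway, 1 point per gene, grouped by role with the number tested in brackets; a gene of several roles appears in each. The grey band holds the middle 95% of all 12591 genes tested, from -0.35 to 0.53; filled red points are genes called by edgeR, and besides Ctnnb1, Apc and Lrp6 they are Btrc, Bcl9 and Bcl9l.

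Of 33 listed β-catenin target genes, 23 were tested and 0 were called, where 2.20% of all genes were. Their median log2 fold change was 0.00, with 11 values above 0 and 12 below, and for 19 of the 23 the whole 95% interval lay within a 1.5-fold change. Cd44, an adhesion receptor for hyaluronan, had counts of 12454, 12833 and 12216 in controls and 12051, 11969 and 12505 in H3CIT+dsDNA libraries (log2 fold change -0.01, SE 0.03, edgeR adjusted p = 0.929). Ccnd1, the gene of cyclin D1, had 7480, 7746 and 7879 counts in controls and 7806, 7447 and 7516 in H3CIT+dsDNA libraries (log2 fold change 0.01, SE 0.03, edgeR adjusted p = 0.952). The groups overlapped for both genes. Many of these targets were defined in other tissues, and Sp5, Lgr5, Dkk1 and Msx1 had 0 counts in all libraries.
Of 15 adherens junction genes, 13 were tested and 0 were called, with a median log2 fold change of 0.00. Ctnnd1, which encodes p120-catenin, had one of 0.00 (SE 0.04, edgeR adjusted p = 0.998). Cdh2, the gene of N-cadherin, was at 0.06 (SE 0.05, edgeR adjusted p = 0.676), and Cdh11, another smooth muscle cadherin, at 0.06 (SE 0.07, adjusted p = 0.782). These cadherins were named after their values were seen.

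Across the 15 alternative analyses, the calls of Ctnnb1, Apc and Lrp6 were kept in all 15, and no other member was called in any. The log2 fold change ran from 1.38 to 1.41 for Ctnnb1, from 1.56 to 1.66 for Apc and from -0.98 to -0.90 for Lrp6. Those of Gsk3b (0.09 to 0.18), Tcf7l1 (0.07 to 0.18) and Lrp5 (-0.14 to -0.10) kept their sign without a call, whereas Axin2 and Lef1 took the other sign in 6 and 2 of the 15.

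**Figure D4:**
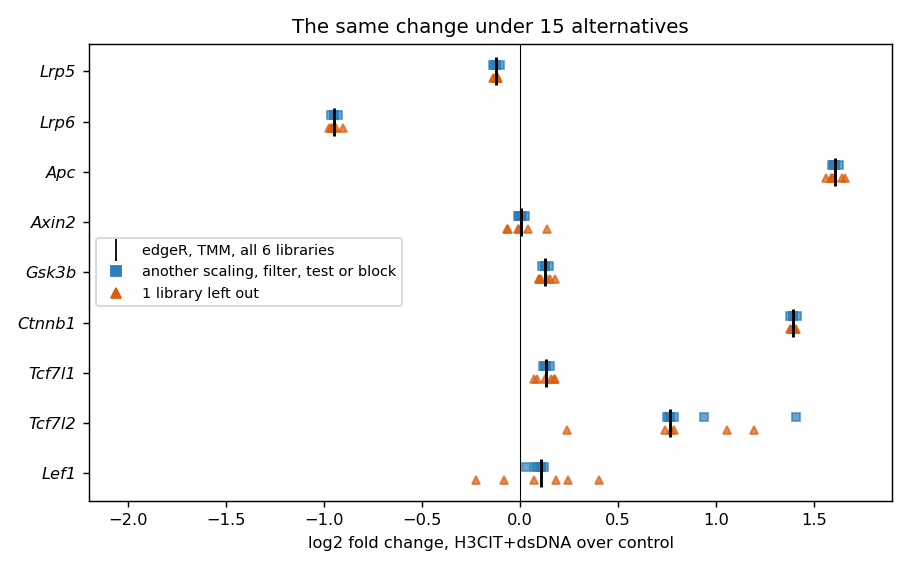
Log2 fold change of each member (horizontal axis) in the edgeR fit with TMM and all 6 libraries (black line), in 9 fits with another scaling, filter, test or replicate block (blue squares) and in 6 fits with 1 library left out (orange triangles). Ctnnb1, Apc and Lrp6 barely move, while Tcf7l2 spreads from 0.24 to 1.41 and Lef1 from -0.22 to 0.40.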

How the data were processed

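RNA of RASMCs was sequenced in 6 libraries. Per the study's methods and the submitters' processing notes, the authors made stranded mRNA libraries, mapped reads to Rnor6.0 with TopHat 2.1.1, used HTSeq to count reads for each gene, and deposited these raw counts without normalization; Cufflinks 2.2.1 is also named. The strand setting is not given in the sources used here. All 6 columns were matched to samples by title, and no line lacked a gene name. Genes with low counts were removed by filterByExpr, library sizes were scaled by TMM, and the quasi-likelihood test of edgeR 4.0.16 was run in R 4.3.3 between 3 and 3 libraries. Standard errors and 95% intervals derive from the unshrunken coefficient, the F statistic and its degrees of freedom. In groups of 3 and 3, the smallest two-sided p of an exact permutation test is 0.1, so none is given. Alternatives were 3 other scalings, DESeq2 1.42.0, limma-voom (limma 3.58.1), 2 other filters, robust dispersions, a block on the replicate number, and leaving out each library in turn. Promoter sequences and neighbors came from RefSeq, GRCr8, and all 9 members have an entry there. No coordinate of Rnor6.0 was used. Named are all members, every called gene of the wider lists, the 2 most counted uncalled genes per list and the 5 genes most like Ctnnb1; paralogs and other genes named were chosen after their values were seen. The members and lists were chosen with earlier results of these data known. A withheld item is not reported here.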

Additional observations from a re-analysis of the deposited data

How the results depend on the processing

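The calls of Ctnnb1, Apc and Lrp6 and their directions held in all 15 alternatives. Over all genes, 277 were called, and between 212 and 376 in the 9 alternatives with all libraries. With 1 library left out the number ran from 164, without H3CIT+dsDNA replicate 1, to 357, without control replicate 3, and was 184 without control replicate 1. Genes called lower, 33, numbered 58 with no filter, 51 with DESeq2, 50 with robust dispersions, 57 without control replicate 3 and 17 to 30 with any other library left out, the lowest number being that without H3CIT+dsDNA replicate 1. Of the wider pathway, 3 genes were called. With the replicate block 1 was, Btrc, and with 1 library left out 1 to 3 were, with 1 without H3CIT+dsDNA replicate 1, H3CIT+dsDNA replicate 2 or control replicate 2. Btrc was called in every alternative, whereas the adjusted p ran up to 0.156 for Bcl9 and 0.109 for Bcl9l. Usp34 was called only without control replicate 3 (edgeR adjusted p = 0.0408). Fits on 5 libraries have fewer samples to estimate the spread. Replicate numbers gave no pairing of libraries, since the deviations of same-numbered libraries from their group means correlated at -0.05, 0.00 and 0.04 across genes, and the block changed no call of a member. The log2 fold change of Tcf7l2, 0.77, was 1.41 with limma-voom and 0.24 without control replicate 3, where in neither case it was called; the cause was not tested. For Lef1, with 15 to 38 counts per library, the coefficient of variation of the H3CIT+dsDNA libraries was 43.7%, against 19.1% from counting error alone.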

Other observations

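The count of 20 for Tcf7l2 in control replicate 3 was singular. Among 8799 genes with at least 200 counts in their highest library, it was the 1 gene with a library over 5 times below each of the other 5 libraries.

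Some genes next to the called members on the chromosome, in the order of GRCr8, were chosen after the members' values were known. Bcl2l14, a BCL2-family gene next to Lrp6, had 76, 77 and 67 counts in controls and 39, 28 and 35 in H3CIT+dsDNA libraries (log2 fold change -1.08, SE 0.20, edgeR adjusted p = 0.0116), while Borcs5, on the other side of Lrp6, was not called (log2 fold change 0.01, adjusted p = 0.970). The neighbors of Ctnnb1, Rpl14 and Ulk4, and of Apc, Epb41l4a and Srp19, were not called, with log2 fold changes between -0.13 and 0.09.

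Across the 6 libraries, the 5 genes whose log2 CPM was most like that of Ctnnb1, among 6944 genes with a mean over 20 CPM across both groups, were Gsdmd (a pore-forming gasdermin), Kat5 (an acetyltransferase), Ddx1 (an RNA helicase), and Bax and Bok (of the BCL2 family), all called higher by edgeR, with Pearson's r over 0.999. These points share their group difference, so r describes only 2 tight groups. In controls Kat5 and Bok had means of 12.1 and 18.4 CPM, so they passed that limit through the H3CIT+dsDNA libraries. Bok had 343, 335 and 332 counts in controls, beside 344, 333 and 332 for Apc, and 1200, 1231 and 1221 in H3CIT+dsDNA libraries, where Gsdmd had 1200, 1231 and 1199 in controls. These like counts touch the called member Apc, and they were not compared with the reads. Kat5 had 223, 221 and 220 counts in controls and 916, 942 and 943 in H3CIT+dsDNA libraries.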
